A study of Mus musculus with 6 samples.

Results

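Zinc finger protein genes were described as a family: every row of the deposited table whose symbol is Zfp followed by a number, without Zfp36, which encodes an mRNA-binding protein with another kind of finger. The rule used symbols and no measured value. It took 308 of the 13069 rows in the table, and the other 12761 rows served as the comparison. Of the 308 genes, 307 had a coding sequence in the annotation, and 301 of these encode at least 1 C2H2 finger, the short fold in which a pair of cysteines and a pair of histidines hold a zinc ion. The median was 11 fingers and the maximum 36.

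RNA was sequenced from mouse glioblastoma (GBM) neurospheres, that is, tumour cells grown as floating spheres in a neural stem cell culture medium to which B-27, N-2, EGF and FGF were added. There were 3 ATRX KO libraries (line code C54B) and 3 ATRX WT libraries (line code C39E). In both groups the tumours were started in neonatal mice, by injecting Sleeping Beauty plasmids for NRAS and for a p53 short hairpin into the ventricles, so p53 knockdown and NRAS are common to all 6 libraries. The labels give the first group as ATRX knockout and also describe a plasmid with a short hairpin against ATRX, so which of these was used is not known. The strain is given as C57BL/6 or FVB without a strain per line, and each genotype has 1 line code. Genotype and line therefore cannot be told apart, and p-values measure the spread between libraries of a line, which may be technical. Reads in the table numbered 22177228 to 32477269 per ATRX KO library and 34966108 to 38039847 per ATRX WT library.

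Most C2H2 zinc finger proteins bind DNA, and many carry a KRAB box near their start. The KRAB box recruits Trim28 (KAP1), which brings the H3K9 methyltransferase Setdb1 and heterochromatin proteins to the bound site, above all to retroelements and imprinted regions. Many of these genes lie in clusters that arose by repeated duplication, and ATRX with H3.3 is known from other cells to bind the repetitive finger exons of such clusters. The series title asks how loss of ATRX in glioma alters the cell cycle. For the zinc finger genes the same libraries answer how far the family differs between the lines, and whether its spread differs from that of other genes.

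Atrx itself stood at log2 RPKM 3.82, 4.06 and 4.10 in ATRX KO and 4.48, 4.50 and 4.43 in ATRX WT (RPKM, reads per kilobase, relative to the size of the library). All ATRX KO libraries were below all ATRX WT libraries, but its RNA was still present: the difference was -0.48 (SE 0.068, limma adjusted p = 0.00013). Of 12 neural stem cell and glial marker genes looked up, 10 had rows, and all 10 fell in ATRX KO, with a summed level of 76.3 to 82.6 RPKM in ATRX KO and 3559 to 3628 RPKM in ATRX WT. Olig1, Dcx and Gpm6a had 0 reads in ATRX KO, while Sox2 and Nes, although lower, kept log2 RPKM of 4.23 to 4.37 and 4.73 to 4.92. All 8 tested mesenchymal markers of 10 rose, with a sum of 1675 to 1830 RPKM in ATRX KO against 43.3 to 46.2 RPKM in ATRX WT. Untested Thy1 was lower in ATRX KO (-0.84). Microglial and endothelial lists had 1 and 2 genes with rows, summing to 4.37 to 4.88 and 5.59 to 6.49 RPKM in ATRX KO against 0.0553 to 0.0782 and 0.285 to 0.403 RPKM in ATRX WT. The microglial sum is Tmem119 alone. Aif1, Cx3cr1, P2ry12, Ptprc and Csf1r of that list had no row, so the list cannot show whether microglia were present. The endothelial sum in ATRX KO is almost all Cdh5, while untested Kdr had 100 ATRX KO reads and 189 ATRX WT reads, a difference of -0.26. Of the RNA quality genes Malat1, Neat1, Fos and Jun, 2 rose and 1 fell, with sums of 212 to 230 RPKM in ATRX KO and 123 to 128 RPKM in ATRX WT. The 2 lines thus differ in cell state markers as well as in genotype, and the part of these differences in the zinc finger results was not tested.

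The first set of sequences shows the promoters of 4 members with large differences, because they differ widely in CG dinucleotides, the sites of DNA methylation. Each is the 250 bases before the first start that RefSeq lists (build GRCm38.p6), written 5′ to 3′ on the gene's strand with every CG in capitals. Zfp57 and Zfp52 were much higher in ATRX KO, and their windows hold 3 and 4 CG. Zfp641 and Zfp454 were much lower in ATRX KO, and theirs hold 20 and 13 CG. The windows are chr17:37003416-37003665 (+) for Zfp57, chr17:21535289-21535538 (+) for Zfp52, chr15:98296162-98296411 (-) for Zfp641 and chr11:50887511-50887760 (-) for Zfp454. The Zfp57 window lies within the gene as GENCODE draws it, and the Zfp454 window overlaps its gene in part, because GENCODE has an earlier start for both.
Zfp57 promoter: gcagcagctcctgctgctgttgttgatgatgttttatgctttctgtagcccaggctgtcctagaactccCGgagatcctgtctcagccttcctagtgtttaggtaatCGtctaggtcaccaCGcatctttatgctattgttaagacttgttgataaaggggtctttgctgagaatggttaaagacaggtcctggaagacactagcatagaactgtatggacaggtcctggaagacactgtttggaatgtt
Zfp52 promoter: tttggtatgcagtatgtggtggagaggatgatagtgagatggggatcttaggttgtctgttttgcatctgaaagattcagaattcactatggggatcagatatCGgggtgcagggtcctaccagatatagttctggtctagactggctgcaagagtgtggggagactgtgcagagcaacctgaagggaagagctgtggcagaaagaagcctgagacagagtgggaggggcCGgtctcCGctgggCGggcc
Zfp641 promoter: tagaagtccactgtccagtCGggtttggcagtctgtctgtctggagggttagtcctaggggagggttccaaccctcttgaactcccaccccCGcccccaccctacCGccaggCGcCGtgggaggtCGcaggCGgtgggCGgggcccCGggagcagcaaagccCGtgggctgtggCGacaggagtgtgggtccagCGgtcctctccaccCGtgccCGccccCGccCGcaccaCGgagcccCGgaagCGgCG
Zfp454 promoter: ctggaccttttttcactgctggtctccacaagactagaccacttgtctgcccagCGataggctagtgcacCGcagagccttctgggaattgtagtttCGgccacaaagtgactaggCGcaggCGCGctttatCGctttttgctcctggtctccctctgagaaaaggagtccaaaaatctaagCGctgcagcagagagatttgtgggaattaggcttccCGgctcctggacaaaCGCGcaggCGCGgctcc

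CG is read the same on both strands. At least 1 CG was present in 99.6% of the 256 members with a promoter in the RefSeq table and in 91.7% of all 27025 promoters of that length. At least 10 CG were present in 58.6% of member promoters and 38.2% of all promoters, with medians of 11 and 6. By direction the median was 13 CG in 67 members that rose, 11 in 137 that fell and 13 in 35 without a call. Among members that differed by log2 1 or more it was 8 in 15 that rose and 11.5 in 52 that fell. The 4 windows shown were chosen after their values were seen: those of Zfp57 and Zfp52 lie below the lower quartile of member promoters (7), that of Zfp641 above the upper quartile (16.25), and that of Zfp454 between them. Methylation was not measured here.

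The second set shows how alike the fingers of neighbouring members can be, because such copies can affect whose read is counted. For each pair of genes it shows the fingers of equal length with the fewest differing bases. Each line is the DNA of 1 finger of 63 bases, from the first cysteine codon to the last histidine codon, in the GRCm38 genome with GENCODE M21 gene models, plus strand. The second finger of Zfp97 (chr17:17144802-17144864) and the second finger of Zfp960 (chr17:17087587-17087649) differ at 0 bases. The third finger of Zfp52 (chr17:21560789-21560851) and the seventh of Zfp53 (chr17:21508892-21508954) differ at 5 bases, printed in capitals.
Zfp97 finger: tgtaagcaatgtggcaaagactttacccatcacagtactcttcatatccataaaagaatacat
Zfp960 finger: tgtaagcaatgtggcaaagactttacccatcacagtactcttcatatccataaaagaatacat
Zfp52 finger: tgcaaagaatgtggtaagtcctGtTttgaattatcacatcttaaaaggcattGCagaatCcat
Zfp53 finger: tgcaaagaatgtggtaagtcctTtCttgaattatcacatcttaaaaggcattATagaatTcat

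Over the longest transcript of each gene, 85.8% of the 42-base windows of Zfp97 and 86.8% of those of Zfp960 also occur in a transcript of another gene (42 bases is the length of a read). For Zfp52 and Zfp53 these shares are 3.0% and 2.3%. Across members the median share was 0.509%, and 26 members reached 20%. Reads of these 26 could have been split or discarded by the counting, and their values are uncertain.

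More of the family fell than rose in ATRX KO, by moderate amounts, and its spread was narrower than that of other genes. A member was tested where log2 RPKM reached 0 in at least 3 of the 6 libraries, which kept 288 and left out 20. A gene is called where limma's adjusted p over all 12201 tested rows was at most 0.05. Of the 288 tested members 83 rose (28.8%), 165 fell (57.3%) and 40 had no call. The background was high: 89.5% of all tested rows were called, 43.6% higher and 45.9% lower. With quantile normalization of the 6 libraries 107 members rose and 128 fell (37.2% and 44.4%), against 43.3% and 46.8% of tested other rows, so the share that fell was then no higher in members than in other rows. Scaling by the total reads in the table, which moves the median of all tested rows to -0.22 from -0.02, gave 60 higher and 190 lower members (20.8% and 66.0%), against 36.3% and 54.6% of tested other rows. In bulk RNA, fewer cells that express a gene and less of its RNA per cell cannot be told apart.

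Across all 308 members ATRX KO minus ATRX WT had a median of -0.31 and a mean of -0.47 on the log2 scale, against -0.04 and -0.25 in the other 12761 rows. The SD over members was 1.34, against 2.35 in the other rows, and the interquartile range (IQR) was 1.16 against 1.46. The quartiles were -0.99 and 0.16 in members and -0.82 and 0.65 in other rows, so of the quartiles the upper differed more. The 5th and 95th percentiles were -2.67 and 1.10 in members and -4.82 and 3.21 in other rows. Differences were below 0 in 65.3% of members and 52.0% of other rows. The extremes were -7.43 (Zfp521) and 4.28 (Zfp345), where other rows reached -14.32 and 13.73. These are descriptions of 2 sets of genes, which are not independent replicates, and no test was made of the set.

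**Figure D1:**
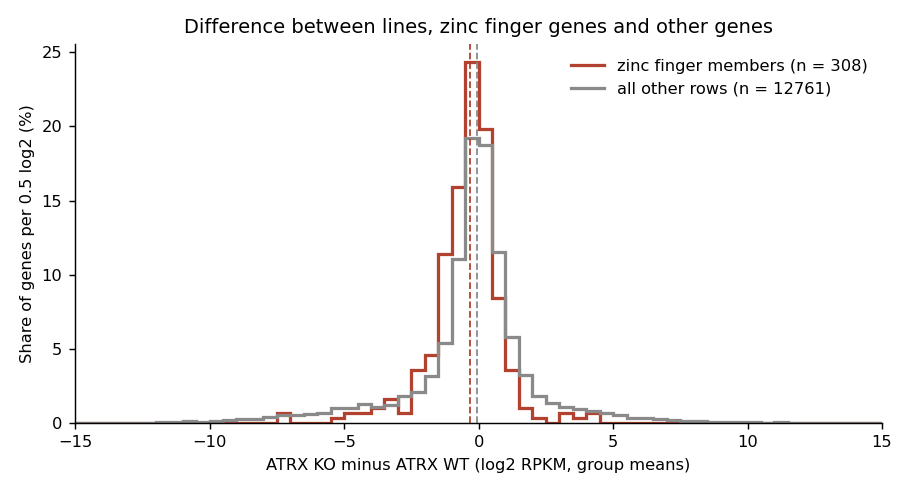
Share of genes (%, y axis) by ATRX KO minus ATRX WT (log2 RPKM, x axis, bins of 0.5) for the 308 zinc finger members and the 12761 other rows, with dashed lines at the medians (-0.31 and -0.04). The members' curve is narrower on both sides and its peak lies left of 0; over tested rows the medians of members and other rows were -0.47 and -0.21 under table totals and -0.08 and -0.04 with quantile normalization, where they nearly meet.

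Differences of log2 1 or more in size, among called members, numbered 83 of 288 (28.8%), with 20 higher and 63 lower. The background was 36.8% of all tested rows, 17.2% higher by that amount and 19.6% lower. Large rises were thus 6.94% of tested members and large falls 21.9%. The groups did not overlap in 251 of 288 members (87.2%), where the background was 90.5%. Replicates were tight: the median SD within a group was 0.0795 in members and 0.0637 in other rows. The filter shapes these counts, because 29 members were kept by their ATRX WT libraries alone and 6 by their ATRX KO libraries alone, and such members had to differ.

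The same shift showed library by library, which restates the same values and is no further evidence. The median member level was log2 RPKM 1.90, 1.94 and 1.98 in the ATRX KO libraries and 2.27, 2.33 and 2.32 in the ATRX WT libraries. Members took 0.793%, 0.815% and 0.815% of the reads in ATRX KO and 0.975%, 0.977% and 0.974% in ATRX WT. Between 257 and 259 members reached log2 RPKM 0 in an ATRX KO library, against 282 to 284 in an ATRX WT library. The groups overlap in none of these 3 measures. The other rows differed little in their median level, 3.46 to 3.47 in ATRX KO and 3.44 in each ATRX WT library. Other rows at log2 RPKM 0 or more were not counted per library. With quantile normalization the median differences of tested rows nearly met, at -0.08 in members and -0.04 in other rows.

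The median level over the 6 libraries was log2 RPKM 2.07 in members and 3.37 in other rows, so both sets were compared within bands of mean log2 RPKM. Between 0 and 2, 108 members had a median difference of -0.42 and an SD of 0.969, against -0.34 and 2.92 in 1976 other rows. Between 2 and 4, 133 members had -0.10 and 0.883, against -0.03 and 1.53 in 3995 other rows. At 4 and over, 27 members had -0.06 and 0.728, against 0.13 and 1.10 in 4908 other rows. The spread of members was narrower at each of these levels, and the medians lay closer together in these 3 bands than over all rows. Called differences of log2 1 or more were 28.7%, 18.8% and 25.9% of tested members in these bands, against 57.6%, 31.2% and 20.9% of tested other rows, so the top band goes the other way. Below 0, the 40 members had a median of -1.82 and an SD of 2.39, against -2.14 and 4.17 in 1882 other rows, and 20 of these 40 were tested.

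**Figure D2:**
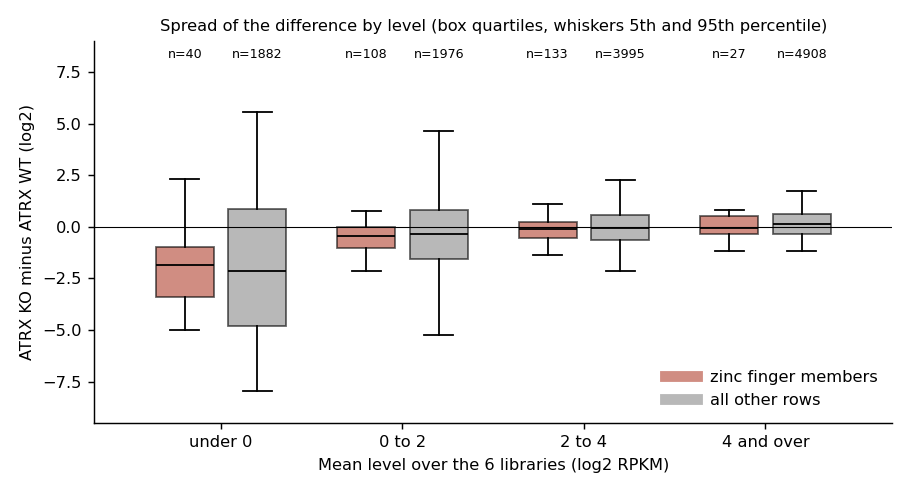
ATRX KO minus ATRX WT (log2, y axis) in 4 bands of mean log2 RPKM (x axis), members left and other rows right in each band; boxes are quartiles, black lines medians and whiskers the 5th and 95th percentiles. In the band from 0 to 2 the member box is much shorter than that of other rows (SD 0.969 and 2.92), and below 0 both medians lie far under 0.

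Across the 308 members the mean level and the difference were correlated, with Pearson's r = 0.48 and Spearman's rho = 0.41, as a description over genes that share the same 6 libraries. The mean level holds the ATRX KO values, so a gene that fell far also lowered its own level. Medians of other rows climbed with level too, from -2.14 below 0 to 0.13 at 4 and over. In the band below 0, 85.0% of members had differences of size 1 or more, close to the 86.3% of other rows in that band.

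The largest changes were ranked among called members without overlap whose higher group averaged log2 RPKM 1 or more. The largest rise was that of Zfp57, the KRAB zinc finger protein that binds methylated imprinting control regions with Trim28 and keeps their methylation in the embryo. Zfp57 (ENSMUSG00000036036.15, chr17:37001163-37010635, plus strand) had log2 RPKM 4.42, 4.56 and 4.58 in ATRX KO and 0.52, 0.52 and 0.41 in ATRX WT. All ATRX KO libraries were far above all ATRX WT libraries. As RPKM this was 23.0 ± 1.33 in ATRX KO and 1.40 ± 0.0616 in ATRX WT (SD, n = 3 each), from 5687 and 523 reads, and the difference was 4.04 (SE 0.062, limma adjusted p = 6.3e-11).

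Zfp951, a KRAB gene on chromosome 5, came next with log2 RPKM 2.63, 2.82 and 2.84 in ATRX KO against -0.98, -1.06 and -1.22 in ATRX WT. The difference was 3.85 (SE 0.096, limma adjusted p = 9.9e-10). All ATRX WT libraries of Zfp951 were below log2 RPKM 0, so it passed the filter through its ATRX KO libraries alone and had to differ. Zfp52 had 3.88, 4.01 and 3.85 in ATRX KO against 0.33, 0.55 and 0.48 in ATRX WT, a difference of 3.46 (SE 0.074, limma adjusted p = 4.1e-10). Its neighbour Zfp53, on the same strand upstream, rose less: it had 3.70, 3.75 and 3.91 in ATRX KO against 1.99, 2.06 and 2.00 in ATRX WT, a difference of 1.77. Zfp960 had 1.52, 1.28 and 1.43 in ATRX KO against -1.93, -1.93 and -2.06 in ATRX WT, a difference of 3.38. Zfp97 had 1.64, 1.73 and 2.01 in ATRX KO against -0.03, -0.16 and -0.11 in ATRX WT, a difference of 1.89. Zfp960 and Zfp97 also passed the filter through their ATRX KO libraries alone and had to differ. Reads from the identical finger shown above may have been counted to the other of these 2 genes. Which genes hold their remaining shared windows was not recorded.

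The remaining members among the 10 largest rises were Zfp593, a factor of 60S ribosomal subunit maturation (1.64), Zfp697 (1.43), Zfp64 (1.35) and Zfp7 (1.34). Zfp345 had a still larger difference, 4.28, but from a low level: log2 RPKM was 0.53, 0.62 and 0.65 in ATRX KO and -4.01, -3.53 and -3.51 in ATRX WT, from 310 and 18 reads. Zfp345 passed the filter through its ATRX KO libraries alone and had to differ, and it shares 39.4% of its windows.

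The largest falls on the same ranking were those of Zfp521 and Zfp641, whose order is not determined because both are at or near 0 reads in ATRX KO. Zfp521 encodes a transcription cofactor that drives embryonic stem cells towards the neural fate. It had log2 RPKM -4.99, -5.95 and -5.28 in ATRX KO and 2.00, 2.05 and 2.02 in ATRX WT, from 7 and 2935 reads. The ATRX KO libraries are close to no reads, and the fitted difference was -7.43 (SE 0.234, limma adjusted p = 4.2e-09). Zfp641 (ENSMUSG00000022987.12, chr15:98285585-98296161, minus strand) had 0 reads in all 3 ATRX KO libraries and 1040 reads over the ATRX WT libraries, at log2 RPKM 1.26, 1.29 and 1.28. With 3 reads over the group as the limit that a count of 0 allows, it was at least 227-fold lower in ATRX KO. Intervals and floors here cover counting error only.

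Zfp3 had log2 RPKM -1.89, -1.52 and -2.03 in ATRX KO against 1.41, 1.33 and 1.54 in ATRX WT, a difference of -3.24 (SE 0.144, limma adjusted p = 3.9e-08). Zfp454 (chr11:50872720-50887651, minus strand) had -0.72, -0.15 and -0.54 in ATRX KO against 2.62, 2.71 and 2.72 in ATRX WT, a difference of -3.15 (SE 0.136, limma adjusted p = 3.2e-08). Zfp40 had -0.65, -0.60 and -0.69 in ATRX KO against 2.45, 2.49 and 2.44 in ATRX WT, a difference of -3.11 (SE 0.071, limma adjusted p = 5.7e-10). In all 3 genes the ATRX KO libraries were below log2 RPKM 0, so these genes passed the filter through their ATRX WT libraries alone and had to differ, as did Zfp521, Zfp641, Zfp286 and Zfp563. The other members of the 10 largest falls were Zfp428 (-2.70), Zfp41 (-2.63), Zfp286 (-2.48), Zfp946 (-2.32) and Zfp563 (-2.28).

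**Figure D3:**
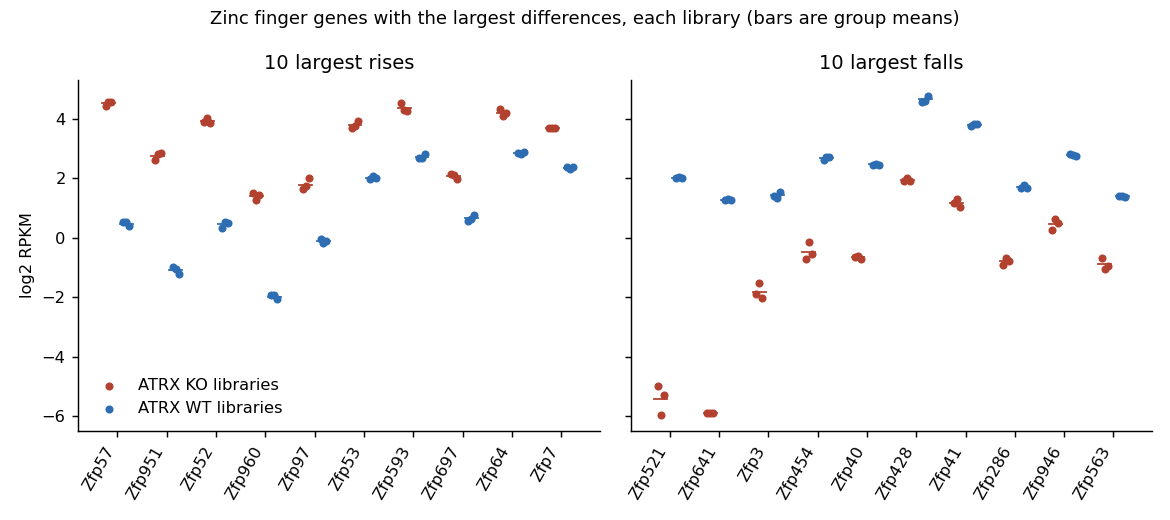
log2 RPKM (y axis) of the members with the 10 largest rises and the 10 largest falls whose higher group averaged log2 RPKM 1 or more (x axis, ordered by size of the difference), with 1 point per library, ATRX KO left and ATRX WT right, and bars at the group means. The genes were chosen to have groups that do not overlap; the 3 ATRX KO points of Zfp641 stand for 0 reads, and those of Zfp57 lie at 4.42 to 4.58 against 0.41 to 0.52 in ATRX WT.

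Of the 20 members below the filter, 18 had differences below 0, as had 67.0% of the 848 other rows below it, and 2 above 0 (Zfp455 at 0.004 and Zfp953 at 0.019, named after their values were seen). Zfp300 had no read in any ATRX KO library against 226 over the ATRX WT libraries, which makes it at least 49.4-fold lower in ATRX KO. Zfp711 likewise had no ATRX KO read against 147 in ATRX WT, which makes it at least 32.1-fold lower. Zfp92 kept 2 reads in ATRX KO against 252 in ATRX WT, and the ratio of ATRX WT over ATRX KO, per library size, was 82.6 with a 95% counting interval of 22.6 to 686. All 3 of these genes are on the X chromosome. Of the 7 members on X, 4 were tested, and 3 of these fell, among them Zfp185 with 8 ATRX KO reads and 468 ATRX WT reads. Zfp185 and Zfp182 passed the filter through their ATRX WT libraries alone and had to fall. Among all tested rows 45.9% fell. These X-linked members were picked out after their values were seen, and other rows on X had a median of -0.36. Fitted without any filter, 180 members fell and 83 rose (58.4% and 26.9%), against 46.7% and 42.9% of other rows.

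The members that silence imprinted regions or retroelements did not move together. Of 8 looked up, 7 had rows (Zfp600 had none) and 6 were tested: 3 rose, 1 fell and 2 had no call, with a median over the 7 of 0.04. Among all tested rows 43.6% rose and 45.9% fell. Beside Zfp57, Zfp568, which represses a placental transcript of Igf2, had log2 RPKM 1.64, 1.53 and 1.63 in ATRX KO against 0.98, 1.00 and 1.02 in ATRX WT, a rise of 0.60 (SE 0.066, limma adjusted p = 2.3e-05). Zfp708, which binds an endogenous retrovirus repeat, rose by 1.20, but 100.0% of its windows occur in another gene. Zfp708 also passed the filter through its ATRX KO libraries alone and had to differ. Zfp932, a repressor of endogenous retroviruses, fell by 0.77 and shares 50.4%.

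Zfp445, which works beside Zfp57 on imprints, was well expressed in both lines: log2 RPKM was 4.82, 4.94 and 5.00 in ATRX KO and 5.00, 5.02 and 5.03 in ATRX WT. The difference of -0.10 had no call (SE 0.044, limma adjusted p = 0.064), and it passed the threshold under table totals, quantile normalization, voom (a weighted fit on the recovered reads), the replicate term and without ATRX KO replicate 3. Zfp809, which silences murine leukaemia virus by binding its primer binding site, had 2.31, 2.49 and 2.27 in ATRX KO against 2.18, 2.34 and 2.42 in ATRX WT. Its groups overlap and the difference was 0.04 (SE 0.083, limma adjusted p = 0.67), but 0.22 with quantile normalization (limma adjusted p = 0.029). Zfp819 was too low to test, with 28 ATRX KO reads and 126 ATRX WT reads.

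Among members with a known role in the nervous system the 3 largest differences were falls. Of 10 looked up, 8 had rows and were tested: 5 fell and 3 rose, where 45.9% and 43.6% of all tested rows did. The median was -0.27. Beside Zfp521, Zfp503 (Nolz1), a regulator of striatal development, had log2 RPKM 0.69, 0.29 and 0.53 in ATRX KO against 2.65, 2.54 and 2.59 in ATRX WT, a fall of 2.09 (SE 0.101, limma adjusted p = 7.1e-08). Zfp191, called Zfp24 in GENCODE and required for myelination by oligodendrocytes, had 4.08, 4.17 and 4.21 in ATRX KO against 5.71, 5.71 and 5.60 in ATRX WT, a fall of 1.52 (SE 0.045, limma adjusted p = 2.7e-09). In both genes every ATRX KO library was below every ATRX WT library. These falls went with the fall of the neural marker list given above, whose part in them was not tested.

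Zfp365, a partner of Disc1, fell by 0.27 (limma adjusted p = 0.00081), a call lost with quantile normalization. Zfp423, which pairs with EBF factors in cerebellar and fat cell development, had 0.33, 0.06 and 0.12 in ATRX KO against 0.28, 0.56 and 0.46 in ATRX WT. Its groups overlap, its difference of -0.27 was at the threshold (limma adjusted p = 0.05), and the value was 0.47 with quantile normalization. The rises were Zfp335, an H3K4 methyltransferase cofactor needed by neural progenitors (0.87, SE 0.060), Zfp110, which binds a neurotrophin receptor (0.55, SE 0.054), and Zfp462, a heterochromatin-linked developmental regulator (0.41, SE 0.037). Zfp536 and Zfp488 had no row.

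Cofactors of chromatin and transcription moved both ways: of 13, 6 rose, 5 fell and 2 had no call, 2 were called with log2 1 or more, and the median was 0.10. Among all tested rows 43.6% rose, 45.9% fell and 36.8% were called with log2 1 or more. The rises were Zfp516, an activator of brown fat genes (1.02), Zfp277, a Polycomb partner (0.86), Zfp592 (0.75), Zfp217, part of a Kdm1a and CtBP corepressor (0.49), Zfp618, a partner of Uhrf2 (0.41), and the SUMO ligase Zfp451 (0.19, but -0.007 when scaled by table totals). Zfp592, Zfp532 and Zfp687 form a complex with one another, and they did not move alike. Zfp532 had log2 RPKM 3.78, 3.81 and 3.75 in ATRX KO against 4.85, 4.80 and 4.87 in ATRX WT, a fall of 1.06 (SE 0.033, limma adjusted p = 3.9e-09). Zfp687 fell by 0.55 and Zfp644, a partner of the H3K9 methyltransferases Ehmt1 and Ehmt2, by 0.39.

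Zfp827, which recruits the NuRD complex to telomeres maintained by recombination, had log2 RPKM 1.84, 1.75 and 1.72 in ATRX KO against 1.88, 1.97 and 2.04 in ATRX WT. The groups are apart by a small step, and the fall of 0.20 (SE 0.067, limma adjusted p = 0.021) was lost with quantile normalization, where the difference was 0.10. Zfp410, whose chief known target is Chd4, fell by 0.10 (limma adjusted p = 0.028, and 0.066 with the replicate term). Zfp143 and Zfp281 each differed by 0.10 with no call (limma adjusted p = 0.071 and 0.077). With voom these p-values were 0.046 and 0.05. Zfp143 also passed without ATRX KO replicate 3 (0.028) and Zfp281 without ATRX KO replicate 1 (0.027), while both were -0.10 under table totals.

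Members that act on RNA, ribosomes or the spindle moved both ways too: of 9, 6 rose and 3 fell, where 43.6% and 45.9% of all tested rows did, and the median was 0.59. Zfp598, the ubiquitin ligase that marks collided ribosomes, had log2 RPKM 5.84, 5.78 and 5.82 in ATRX KO against 4.68, 4.67 and 4.80 in ATRX WT, a rise of 1.10 (SE 0.039, limma adjusted p = 9.8e-09). Zfp346, which binds double-stranded RNA, had 4.24, 4.11 and 4.17 in ATRX KO against 2.90, 2.83 and 2.96 in ATRX WT, a rise of 1.27. Zfp622, like Zfp593 a factor of 60S subunit maturation, rose by 1.10, the RNA-binding Zfp106 by 0.59 and the spliceosome-associated Zfp830 by 0.28, a call lost when scaled by table totals. The falls were Zfp638, an RNA-binding protein that also silences unintegrated retroviral DNA (-0.65), the kinetochore and spindle factor Zfp207 (-0.29) and Zfp326, which links splicing to elongation (-0.27). This list is short and was drawn up with earlier results of these data known, and no test sets it apart from the family.

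The list for mesenchyme, fat and bone held 2 members, while Zfp423 and Zfp516, whose links to fat are given above, were on other lists. Of the 2, Zfp467, which favours fat over bone, fell, with a difference of -2.26 (SE 0.080). It had log2 RPKM 0.15, -0.07 and -0.00 in ATRX KO against 2.24, 2.31 and 2.30 in ATRX WT. Zfp703, a nuclear corepressor, had 4.24, 4.12 and 4.18 in ATRX KO against 3.35, 3.38 and 3.42 in ATRX WT, a rise of 0.80 (SE 0.042). The mesenchymal marker list given above rose in the same libraries, and its part in these values was not tested. Of the pluripotency genes looked up, Zfp296 rose by 2.35, with 232 ATRX KO reads and 63 ATRX WT reads, and Zfp42 (Rex1) had no row. Zfp296 passed the filter through its ATRX KO libraries alone and had to differ.

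The members with the highest levels were Zfp330, Zfp146, Zfp207, Zfp664 and Zfp740. Zfp330 had log2 RPKM 6.39, 6.52 and 6.49 in ATRX KO against 6.14, 6.19 and 6.19 in ATRX WT, a rise of 0.30 that lost its call with quantile normalization. Zfp664 had 5.16, 5.21 and 5.25 in ATRX KO against 6.25, 6.24 and 6.23 in ATRX WT, a fall of 1.03 (SE 0.029, limma adjusted p = 2.0e-09). Zfp740 rose by 0.46, and Zfp146 by 0.15, which became -0.05 under table totals and -0.006 with quantile normalization. At the other end, among members of at least log2 RPKM 3, Zfp746, Zfp865 and Zfp62 had differences of 0.003, 0.009 and 0.015 with SEs of 0.051, 0.061 and 0.037. A missing call does not show that these levels are the same.

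By position, 162 of the 308 members fell into 19 clusters, defined as at least 4 members whose neighbouring starts lie within 1000000 bases in GENCODE M21 (GRCm38). Clustered members had a median difference of -0.46, against -0.20 in the 146 outside. They were also expressed at lower levels, with a median log2 RPKM of 1.85122 against 2.54997 outside. Lower members fell more across the family, as did lower other rows, as given above. The part of level in the contrast between clustered members and those outside was not tested. Of 151 tested clustered members 96 fell and 32 rose (63.6% and 21.2%). Of 137 tested members outside 69 fell and 51 rose (50.4% and 37.2%). Among all tested rows 45.9% fell and 43.6% rose. The SD was 1.07 inside clusters and 1.58 outside. The median was below 0 in 18 of 19 clusters and 0.009 in the other, on chromosome 7 from 4915217 to 5053723. With neighbouring starts within 500000 bases there were 17 clusters with 145 members.

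The largest cluster, chr17:21008903-23599487, held 19 members, among them Zfp52, Zfp53 and Zfp40, so that its extremes, 3.46 and -3.11, lie within a few megabases. Of 18 tested, 9 fell, 5 rose and 4 had no call, and the median was -0.13. A second cluster on the same chromosome, chr17:32765496-33631779, was more uniform: of 10 tested members 9 fell, Zfp871 rose by 0.20 (0.008 when scaled by table totals), and the median was -0.49. The 4 other rows in its span had a median of 0.39, and 3 of them rose. On chromosome 13, chr13:67038596-67827002 held 18 members, with 7 falls and 4 rises among 14 tested; the median was -0.24. There the extremes were Zfp708 at 1.20 and Zfp459 at -4.06, with 13 ATRX KO reads and 390 ATRX WT reads for Zfp459. The falls in these clusters include members that passed the filter through their ATRX WT libraries alone and had to fall. Among them are Zfp459, Zfp458 and Zfp273 on chromosome 13, and Zfp40 and Zfp563 on chromosome 17. Zfp458 and Zfp273 were named after their values were seen.

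Chromosome 7 carried 81 members, more than any other chromosome, with 45 falls and 18 rises among 75 tested and a median of -0.46. Its cluster chr7:29768552-30169750 held 15 members and no other row of the table. There 9 fell, 2 rose (Zfp568 and Zfp146) and 4 had no call, with a median of -0.33 and the largest fall in Zfp30 (-1.59). In chr7:12415153-12985714, 6 of 7 members fell, with a median of -1.11, against 0.77 over the 3 other rows in that span. Zfp110 was the member that rose there. In chr7:6131491-7209998, 7 of 9 tested members fell, the median was -1.05, and the 3 other rows had -1.95. In chr7:24081924-25227507, 7 of 11 tested fell and 4 rose, from Zfp428 at -2.70 to Zfp526 at 0.89. The falls in these clusters include Zfp14, Zfp109, Zfp128, Zfp418, Zfp551 and Zfp583, some of them named after their values were seen. These members passed the filter through their ATRX WT libraries alone and had to fall. Among all tested rows 45.9% fell and 43.6% rose.

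Clusters with 0 rises were chr6:47819266-48623227, with 6 falls among 9 members, and chr9:19622102-20605409, with 5 falls among 6. In the first of these all 5 other rows fell too, with a median of -2.08. In the second, Zfp560 passed the filter through its ATRX WT libraries alone and had to fall. By chromosome, member medians were above 0 on chromosomes 1 (0.19, 3 members), 2 (0.07, 14), 3 (0.06, 4), 4 (0.20, 11), 12 (0.33, 4) and 16 (0.20, 5). On chromosome 4, 7 members rose and 3 fell of 11, and on chromosome 16, 3 rose and 1 fell of 4 tested. Other rows on chromosomes 4 and 16 had medians of 0.48 and 0.43, the highest of any chromosome. Without members on chromosomes 4 and 16 the family median was -0.34, with 161 falls and 73 rises.

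**Figure D4:**
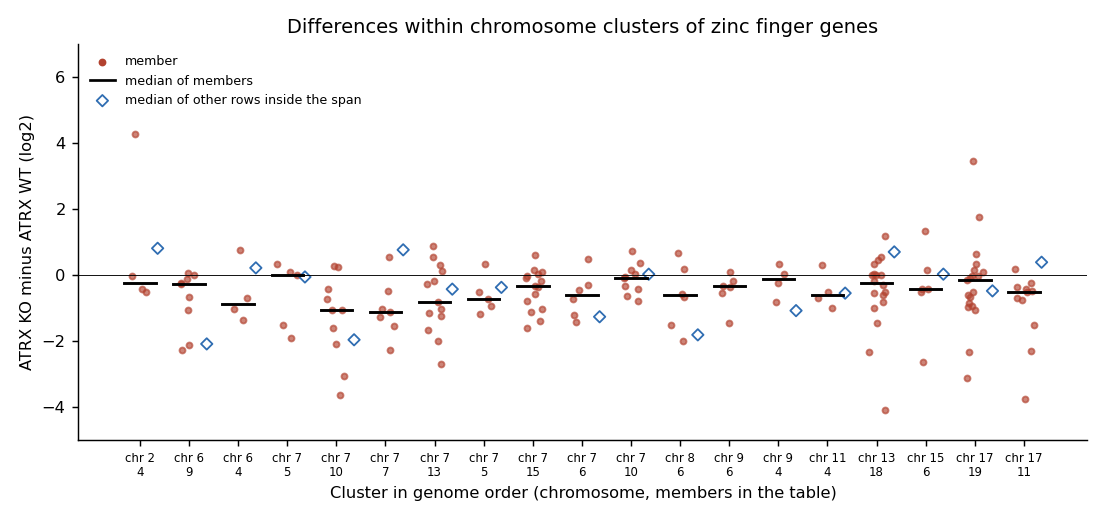
ATRX KO minus ATRX WT (log2, y axis) of each member in the 19 clusters (x axis, genome order, with chromosome and member number), with black bars at the cluster medians and open diamonds at the median of other rows in the same span. The medians of 18 clusters lie below 0, and single members within a cluster spread over several log2 units, from -3.11 to 3.46 in the cluster of 19 on chromosome 17.

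KRAB boxes were found in translated GENCODE coding sequences by a short pattern around its conserved tryptophan and leucine-tyrosine residues, which matched 132 members. For comparison with the counts below, 45.9% of all tested rows fell and 43.6% rose. Of 122 tested with a match 77 fell and 21 rose (63.1% and 17.2%), with a median over the 132 of -0.41, and of 166 without 88 fell and 62 rose (53.0% and 37.3%), with a median over 176 of -0.25. That pattern missed some genes known to carry a KRAB box, and a broader one chosen after seeing this matched 153. With it, 90 fell and 27 rose of 141 with a match (median -0.43), and 75 fell and 56 rose of 147 without (median -0.19). The difference between the classes was not tested.

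KRAB members were expressed at lower levels, with a median log2 RPKM of 1.62 against 2.72 without a match by the broader pattern. Within levels of 0 to 2, 70 with a match had a median difference of -0.43 and 38 without had -0.31. Within 2 to 4, 56 with a match had -0.31, with 32 falls and 13 rises, and 77 without had 0.05, with 34 falls and 31 rises. Of tested other rows at that level 45.9% fell and 41.8% rose. Below 0, 25 with a match had -1.99 and 15 without had -1.61, and at 4 and over the order turned, with 0.61 in 2 with a match and -0.10 in 25 without. Of the 10 largest rises ranked above, 7 are in KRAB genes: Zfp57, Zfp951, Zfp52, Zfp53, Zfp960, Zfp97 and Zfp7. Of these, Zfp97 and Zfp960 may share reads, as given above. Called rises of log2 1 or more were about as frequent in both classes. They numbered 10 of 141 tested members with a match (7.09%) and 10 of 147 without (6.80%), against 17.2% of all tested rows.

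The number of fingers was counted in the same translations. For comparison with the counts below, 43.6% of all tested rows rose and 45.9% fell. With 1 to 4 fingers, 39 members had a median of 0.10, and 18 rose and 16 fell of 38 tested. With 5 to 9 the median was -0.37 (19 rose and 45 fell of 77 tested), with 10 to 14 it was -0.40 (30 and 66 of 109) and with 15 or more -0.31 (13 and 34 of 57). Over 307 members the number of fingers and the difference were almost uncorrelated (r = -0.06, rho = -0.10). The number of fingers went with a lower level (r = -0.24, rho = -0.32). A SCAN box, which pairs such proteins with each other, was found in 10 members, of which 5 fell and 4 rose. In 6 members no C2H2 finger was found: Zfp185, Zfp330, Zfp365, Zfp503, Zfp703 and Zfp935, of which 3 rose and 3 fell.

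**Figure D5:**
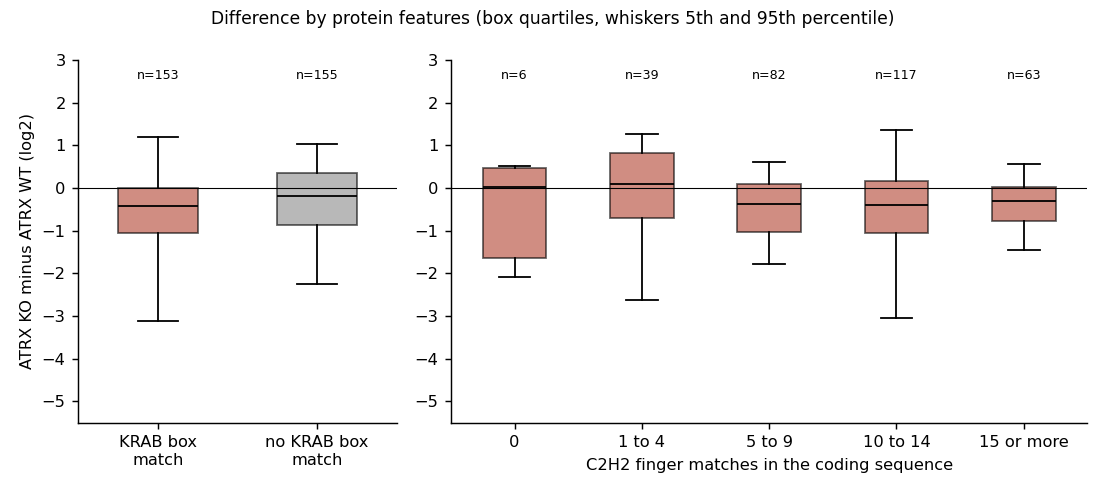
ATRX KO minus ATRX WT (log2, y axis) of the 308 members by KRAB box match with the broader pattern (left panel) and of the 307 with a coding sequence by number of C2H2 finger matches (right panel); boxes are quartiles, black lines medians and whiskers the 5th and 95th percentiles. Medians are -0.43 with and -0.19 without a KRAB match, and 0.10 for 1 to 4 fingers against -0.31 to -0.40 for 5 or more.

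The genes that act with KRAB zinc finger proteins, or that lay down, read or remove H3K9me3, changed modestly. Of 36 symbols looked up, 34 had rows and 33 were tested: 20 fell, 9 rose and 4 had no call, where 45.9% and 43.6% of all tested rows fell and rose. The falls include Atrx itself, which defines the groups, and the median was -0.23. Scaling by table totals left 24 falls and 5 rises, and quantile normalization 22 and 6. Trim28, the corepressor itself, had log2 RPKM 6.73, 6.66 and 6.73 in ATRX KO against 6.98, 7.01 and 7.07 in ATRX WT, a fall of 0.31 (SE 0.033, limma adjusted p = 1.7e-05). Setdb1 had 4.02, 4.05 and 4.09 in ATRX KO against 4.54, 4.52 and 4.52 in ATRX WT, a fall of 0.47 (SE 0.032, limma adjusted p = 7.7e-07). In both genes the groups do not overlap.

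The largest rises on that list were Morc3, a heterochromatin ATPase, with 4.40, 4.46 and 4.43 in ATRX KO against 2.98, 3.07 and 2.97 in ATRX WT (1.42, SE 0.040), the H3K9 demethylase Kdm4a (1.10) and Morc2a, which works with the HUSH complex (0.80). The largest falls were the remodeller Smarcad1 (-0.88), the DNA methyltransferase Dnmt3a (-0.80) and the deacetylase Hdac1 (-0.71). Tasor, a subunit of the HUSH complex, has its row under the older symbol Fam208a, which is on the list too and fell by 0.45. Atf7ip2 had no row, and Dnmt3b was below the filter.

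Other zinc finger gene groups in the table were not used for the rule. For comparison, 43.6% of all tested rows rose and 45.9% fell. The 37 Zbtb genes, which join C2H2 fingers to a BTB domain, had a median of 0.11 and an SD of 0.962, with 17 rises and 12 falls of 36 tested. The 19 Zkscan and Zscan genes, which carry a SCAN box, had a median of -0.27 and an SD of 1.59, with 7 rises and 9 falls of 17 tested. The 12 Klf genes had a median of 0.12 and an SD of 1.72, with 6 rises and 5 falls. The 20 Zfp symbols with a letter suffix, near relatives of the family, had a median of -0.06 and an SD of 0.820, with 6 rises and 7 falls of 18 tested. With these 20 added, the family had 89 rises and 172 falls.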

How the data were processed

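The single table deposited by the authors holds log2 RPKM values of 13069 genes in 6 libraries. Per the labels' protocols, each library came from 4 ug of total RNA through a kit that keeps strand, and was read as pairs of 42 nt. STAR 2.5.3a, HTSeq 0.11.2 and edgeR 3.20.9, beside FastQC and Trim Galore, are named in the submitters' processing notes, and mm9 and mm10 are named as builds with no role given. The filter that removed low genes and whether counting used strand are not given in the sources used here. The deposited values fell on whole-read steps in 100% of rows (tolerance 0.0001 reads) above a prior count that averaged 2 reads, which gave back the reads behind each value and pulls the differences of low genes towards 0.

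The log2 values of rows at 0 or more in at least 3 of 6 libraries (12201, with 868 left out) entered a linear model in limma 3.58.1 under R 4.3.3 (no covariate; empirical Bayes with trend, 4.2 prior and 4 residual degrees of freedom). The two-sided p-values were adjusted by Benjamini-Hochberg over those 12201 rows, with 0.05 as threshold, and the fit was tested on simulated data. Differences are ATRX KO minus ATRX WT. Where a group had 0 reads, the fold was set against 3 reads over the group; with 1 to 3 reads a 95% counting interval is given. Same-numbered libraries did not deviate together, so no replicate term was used.

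Coordinates, transcripts and translated coding sequences are from GENCODE M21 (GRCm38), which matched all 308 members, 2 of them by an older symbol; promoters are from RefSeq (GRCm38.p6). GENCODE translations took the place of the RefSeq proteins that had been planned, and the SCAN pattern and the broader KRAB pattern were chosen after the first patterns had been run. Named members were those of the role lists, the 10 largest rises and falls without overlap whose higher group averaged log2 RPKM 1 or more, the largest call each way per cluster, the 5 highest levels, the 3 smallest differences at a level of 3 or more, and any with 0 reads in 1 group. Members and lists were chosen with earlier results of these data known. Alternatives covered the filter, pseudocount, scaling, variance model, voom, the replicate number, each library left out and the rule for members.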

Additional observations from a re-analysis of the deposited data

How the results depend on the processing

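More members fell than rose under every alternative run, but with quantile normalization the share that fell was 44.4% of members and 46.8% of other rows. With a stricter filter of log2 RPKM at least 2 in at least 3 libraries, 96 members fell and 62 rose, 44 were called with log2 1 or more, the median was -0.17 and the IQR 1.01. With 1 added to each RPKM, 48 were called with log2 1 or more, the median was -0.24 and the IQR 0.75. Scaling by table totals gave a median of -0.51 and 5 rises among the silencing genes. Quantile normalization gave -0.083 and an IQR of 0.96, voom -0.28 and 1.05, and rows past the filter alone -0.28 and 1.05. The median was -0.30 with letter-suffix symbols added and -0.34 without chromosomes 4 and 16, and the IQR was 1.19 without the 26 members that share 20% or more of their windows, a choice made after seeing the data. Leaving out 1 library at a time gave 77 to 84 rises, 158 to 164 falls, medians of -0.33 to -0.30 and IQRs of 1.11 to 1.17. The stricter filter tests fewer members (183); for the other moves the cause was not tested.

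Same-numbered libraries had correlations of their deviations of -0.05, 0.05 and -0.04 over 12201 genes, so the number pairs nothing in these data; with the number as a replicate block 80 members rose, 161 fell and 83 were called with log2 1 or more. Table totals lower every difference by about the same amount, so of 91 named results the 8 with small positive differences turned sign: Zfp62 (-0.18), Zfp143 (-0.10), Zfp146 (-0.045), Zfp281 (-0.10), Zfp451 (-0.0068), Zfp746 (-0.19), Zfp809 (-0.16) and Zfp865 (-0.19). With quantile normalization 4 did: Zfp62 (-0.074), Zfp146 (-0.0058), Zfp423 (0.47) and Zfp827 (0.10). Without 1 library Zfp62 ranged over -0.0042 to 0.041, Zfp746 over -0.033 to 0.037, Zfp809 over -0.028 to 0.092 and Zfp865 over -0.042 to 0.050. Calls lost without 1 library or more were those of Zfp410 (limma adjusted p up to 0.088), Zfp423 (up to 0.16) and Zfp827 (up to 0.082), each near the threshold. The call of Zfp423 was also lost with no filter (0.052). Library depth limits the low members: those under 20 reads in a group cannot show by how much they differ.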
